A study of Mus musculus with 6 samples.

Results

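Long intergenic noncoding RNAs (lincRNAs) are transcripts that are annotated between protein-coding genes and have no annotated protein of their own. The 176 described here were the lincRNA genes of GENCODE mouse release M21 that lie on autosomes and had at least 100 counts summed over 6 libraries of cultured newborn cardiomyocytes. They were taken from 4364 autosomal lincRNA genes in count tables of 52550 genes. Of these 4364, 3241 had no count in any library, 944 had 1 to 99 counts and 179 reached the minimum. The rule left out 3 of the 179, H19 with 348469 counts, Meg3 with 61062 and Gm42418 with 9253709. They were thus chosen by counts summed over both genotypes and not by the difference between them.

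The cells came from hearts of mice on postnatal day 1, were enriched for cardiomyocytes by magnetic sorting, were grown for 48 hours with serum (5% from horse and 10% from fetal calves) and were then starved of it for 24 hours. The design compares 3 control libraries (genotype ctrl) with 3 libraries of GR-cKO, a conditional deletion of Nr3c1, the gene of the glucocorticoid receptor, which is a hormone-activated transcription factor. The alleles, the Cre driver and its promoter, the strain, and whether animals were pooled were not in the sources used here. The labels call the libraries biological replicates without saying whether they came from separate animals or cultures, so the spread that p-values measure is that of these 6 libraries and may be technical.

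Many lincRNAs stay in the nucleus, where some hold together nuclear bodies or act on the locus from which they are transcribed, while others serve mainly as precursors of small nucleolar RNAs (snoRNAs) or microRNAs (miRNAs). Their transcripts are commonly spliced and polyadenylated like messenger RNAs, but they are on the whole less abundant and more restricted to single tissues. In the heart, lincRNAs are known from cardiac lineage commitment, from imprinted clusters active before birth, and from responses to stress.

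Each library held 19371508 to 22583596 gene counts, and 3 counts in a library, the floor used here, corresponded to 0.133 to 0.155 CPM (counts scaled to a common library total). Levels below are CPM scaled by TMM factors, as mean ± SD over 3 libraries, and differences are log2 fold changes of GR-cKO over control with their standard error (SE). Nr3c1 had a level of 71.5 ± 2.96 CPM in control against 44.4 ± 1.71 CPM in GR-cKO (-0.69 ± 0.09 on the log2 scale, adjusted p = 3.3e-06, edgeR's quasi-likelihood test with Benjamini-Hochberg adjustment), and since the deleted part is not given, its 3' tags need not measure the receptor that remained. Xist, the RNA of the inactive X chromosome, stood between 271 and 293 CPM in the control libraries and at no more than 0.0996 CPM in the GR-cKO libraries, so the sex of the cells and their genotype cannot be told apart in any comparison here. The 12 cardiomyocyte markers summed to 50898 to 52280 CPM in control, against 64352 to 65775 CPM in GR-cKO, so the labelled cell type was present in all 6 libraries. Summed levels of other cell types were 3660 to 3867 and 4778 to 4906 CPM for 10 fibroblast markers, 954 to 994 and 1244 to 1344 CPM for 10 endothelial markers, 3746 to 3857 and 4432 to 4656 CPM for 8 smooth muscle and pericyte markers, 125 to 132 and 119 to 148 CPM for 8 epicardial markers and 15.4 to 19.7 and 37.5 to 59.9 CPM for 10 leukocyte markers, control first. Of these markers, 9 cardiomyocyte, 5 fibroblast, 7 endothelial, 5 smooth muscle and pericyte, 2 epicardial and 3 leukocyte genes were called higher in GR-cKO, and 2, 1, 1, 0, 2 and 0 lower. Over all genes tested, 7.63% were called higher and 7.19% lower. Only 6 of the 10 leukocyte markers were tested. Among these, Lyz2 rose from 12.9 ± 2.25 to 40.6 ± 9.66 CPM (1.65 ± 0.16 on the log2 scale). Tyrobp and Laptm5 were the other leukocyte markers called higher, and 0 were called lower. Ptprc, not tested, was at 0 CPM in 2 control libraries and at 1.03 CPM or less in every library. The part of these marker shifts in the lincRNA differences below was not tested, and in bulk samples fewer cells of a type and less RNA per cell cannot be told apart.

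The lincRNAs together took 0.324% to 0.345% of gene counts in control and 0.357% to 0.373% in GR-cKO, and without Malat1 0.196% to 0.208% and 0.199% to 0.202%, which overlap. Most were scarce. Their median level was 2.61 CPM, against 19.9 CPM for tested protein-coding genes, and the range ran from 0.791 to 1495 CPM. There were 54 lincRNAs with a mean of at least 5 CPM, 102 between 1 and 5 CPM and 20 below 1 CPM, while 7 exceeded 100 CPM. The 8 most abundant held 74.9% of all lincRNA counts, and Malat1 alone held 37.6% to 46.8% in a library. Precision followed the level, with a median SE of the log2 fold change of 0.16 at 5 CPM or more and of 0.61 below 1 CPM. At the edge of the count minimum, 9330104G04Rik and Gm44275 with 100 counts and Gm43254 with 101 were just inside, and D730045B01Rik and Gm38910 with 97 counts and Gm7967 with 96 were just outside. By name, 85 carried Gm numbers and 62 were Rik clones, the provisional names of genes without an assigned function, and 5 had GenBank or clone names. Of 116 found by symbol in RefSeq, 108 are noncoding there and 6 are protein-coding.

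All 176 passed the filter on low counts and were tested. In GR-cKO 15 of them changed, 8 higher and 7 lower, or 8.52% of the lincRNAs against 14.8% of all 14386 genes tested (7.63% of all genes higher and 7.19% lower) and 16.1% of protein-coding genes, at an adjusted p below 0.05. With libraries scaled by the ERCC spike-in RNAs, 10 lincRNAs were higher and 5 lower, and of all genes 1355 (9.42%) were higher and 522 (3.63%) lower. Without spike-in scaling the median log2 fold change was -0.00 over the lincRNAs, with 88 above 0 and 88 below, and -0.01 over all genes. Under spike-in scaling the medians were 0.10 and 0.09. By level, 12 of the 54 lincRNAs at 5 CPM or more were called (22.2%, against 18.5% of all genes at that level), 3 of the 102 between 1 and 5 CPM (2.94%, against 7.10%) and none of the 20 below 1 CPM (against 3.57%), where edgeR gave 1 an unadjusted p below 0.05 and DESeq2 called 0. An unadjusted p below 0.05 was reached by 31 of all 176 (17.6%, against 26.1% of all genes). The 2 groups of libraries did not overlap in 40 lincRNAs (22.7%, against 29.9% of all genes), 13 of the 15 called among them. GR-cKO was the higher group in 19 of these (10.8%, against 15.2%) and the lower in 21 (11.9%, against 14.7%). Of 10 lincRNAs with a fitted change of at least 1 on the log2 scale, 4 were called. Of the 3 lincRNAs left out by name, H19 was called higher (0.21 ± 0.05 on the log2 scale), Meg3 was called lower (-0.34 ± 0.06) and Gm42418 was not called.

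**Figure D1:**
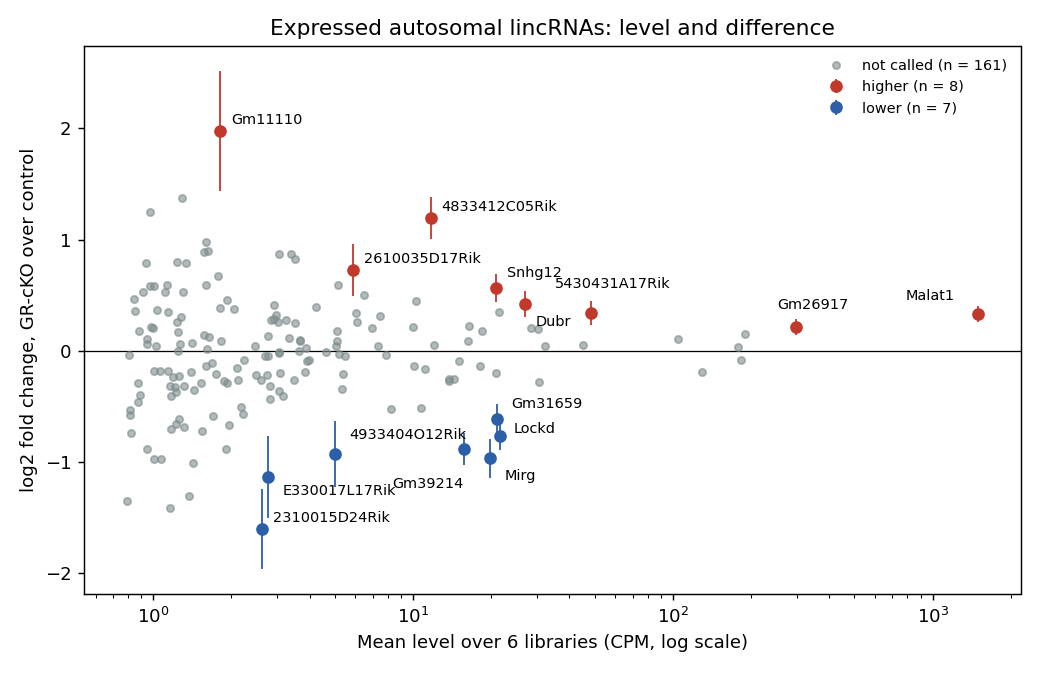
Mean level over 6 libraries (x axis, CPM, log scale) against the log2 fold change of GR-cKO over control (y axis) for the 176 lincRNAs, with the 8 higher in red, the 7 lower in blue (bars are SE) and the 161 others in grey. The called lincRNAs span 1.81 CPM (Gm11110) to 1495 CPM (Malat1), and the scatter of the others around 0 is widest at the left.

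These libraries read tags next to the 3' end of polyadenylated RNA, so the annotated ends of the lincRNAs bear on their counts, although where the tags fell was not part of the files. The last 50 bases of the longest GENCODE transcript are shown for the 8 called lincRNAs whose call held under every alternative run, with the polyadenylation signals AATAAA or ATTAAA in capitals.
Malat1: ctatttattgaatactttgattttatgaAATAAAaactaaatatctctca
Snhg12: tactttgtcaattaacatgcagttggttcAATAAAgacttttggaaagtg
4833412C05Rik: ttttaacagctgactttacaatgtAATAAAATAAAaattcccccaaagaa
Lockd: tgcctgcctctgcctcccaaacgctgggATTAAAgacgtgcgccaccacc
Gm31659: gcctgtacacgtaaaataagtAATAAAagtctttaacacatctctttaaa
Mirg: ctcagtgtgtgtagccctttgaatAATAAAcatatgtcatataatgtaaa
Gm39214: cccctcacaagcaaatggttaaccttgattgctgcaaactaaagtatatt
2310015D24Rik: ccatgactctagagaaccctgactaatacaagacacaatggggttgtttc
Gm39214 and 2310015D24Rik hold neither signal in this window. One of the signals was present in 110 of the 176 lincRNAs (62.5%), against 80.0% of 12703 tested protein-coding genes, and AATAAA itself in 52.3% against 64.8%. Among the 15 called lincRNAs 8 had one (53.3%), and among the 161 others 63.4%. A run of at least 10 A anywhere in the longest transcript was present in 7 of the 15 called (46.7%). The share was 21.1% among the other lincRNAs and 18.2% among the protein-coding genes. Gm39214 and 2310015D24Rik have runs of 15 and 13. Whether tags were primed at such runs was not tested. Counts of a gene whose used 3' end differs from the annotated one depend on how tags were assigned, which the sources used here do not give.

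Among lincRNAs of nuclear bodies and wide expression, Malat1 rose and its neighbour Neat1 gave no call. Malat1 (ENSMUSG00000092341, chr19:5795690-5802672, minus strand, GRCm38), an RNA retained in nuclear speckles, where splicing factors gather, was the most abundant of the 176. Its levels were 1482, 1266 and 1226 CPM in the control libraries and 1581, 1784 and 1629 CPM in the GR-cKO libraries. Every GR-cKO library lay above every control library, although the highest control, replicate 1, was close to the lowest GR-cKO library. The change was 1.26-fold, from 1325 ± 138 to 1665 ± 106 CPM (0.33 ± 0.07 on the log2 scale, adjusted p = 0.00132). The mature 3' end of Malat1 is known to be made by cleavage and to lack a poly(A) tail, so a method primed on A-rich sequence sees it through encoded A stretches or minor polyadenylated forms.

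Neat1 (chr19:5824708-5845478, minus strand), the scaffold of the nuclear bodies called paraspeckles, lies 22036 bp from Malat1 on the same strand. It stood at 166, 172 and 189 CPM in control and 171, 181 and 189 CPM in GR-cKO. The groups overlapped almost completely (0.04 ± 0.07 on the log2 scale, adjusted p = 0.819). Of 12 proteins that bind or build around these RNAs, 4 fell and none rose at the RNA level, against 7.19% and 7.63% of all genes. The list median was -0.22 against -0.01 over all genes. The paraspeckle protein Sfpq fell from 209 ± 13.0 to 158 ± 6.39 CPM (-0.41 ± 0.07 on the log2 scale, adjusted p = 0.000186). Its partner Pspc1 changed by -0.48 ± 0.14 and the splicing factor Srsf1 by -0.38 ± 0.09, both on the log2 scale, while Tardbp was the other member called.

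Of 26 RNAs listed in this group, 6 are among the 176 lincRNAs, with a median of 0.18 against -0.01 over all genes. There were 2 called higher (Malat1 and 2610035D17Rik) and 1 lower (Lockd), where 8.52% of all 176 lincRNAs and 14.8% of all genes were called. 2610035D17Rik (chr11:113043895-113201838, minus strand) was 4.22, 3.56 and 5.53 CPM in control and 8.13, 6.72 and 7.16 CPM in GR-cKO. All 3 GR-cKO libraries were higher, and it rose 1.66-fold (0.73 ± 0.23 on the log2 scale, adjusted p = 0.0376). The call was lost without any single library other than control replicate 3, with log2 fold changes of 0.59 to 0.79 and an adjusted p of up to 0.162. Its nearest protein-coding gene, Slc39a11, lies 43015 bp away on the same strand and differed by 0.05 ± 0.13 on the log2 scale (adjusted p = 0.854). The next, the transcription factor gene Sox9, 256135 bp away, fell by 0.39 ± 0.07 on the log2 scale (adjusted p = 0.000474). Pvt1, transcribed downstream of Myc, measured 5.37 ± 1.32 and 7.60 ± 0.971 CPM in control and GR-cKO (0.50 ± 0.23 on the log2 scale, adjusted p = 0.164), and its neighbour Myc differed by 0.07 ± 0.20 on the log2 scale. 2900097C17Rik, the mouse gene of Norad, an RNA that binds Pumilio proteins, was low at 1.91 ± 0.376 and 0.942 ± 0.368 CPM (-1.01 ± 0.49 on the log2 scale, adjusted p = 0.194).

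Lockd fell beside a cell-cycle inhibitor that gave no call. Lockd (ENSMUSG00000098318, chr6:134929092-134956798, plus strand) is a lincRNA studied in red blood cell precursors that starts 3579 bp after the end of Cdkn1b, the gene of the cyclin-dependent kinase inhibitor p27. It was 24.4, 29.9 and 27.1 CPM in control and 15.0, 15.8 and 16.9 CPM in GR-cKO. The groups were well separated and the level fell by 0.77 ± 0.13 on the log2 scale (adjusted p = 0.000108). Cdkn1b itself was 22.7 ± 2.76 and 24.7 ± 2.06 CPM (0.13 ± 0.13 on the log2 scale, adjusted p = 0.594). On the other side, 24920 bp downstream, Apold1, an endothelial early-response gene, rose from 3.25 ± 0.575 to 18.3 ± 2.11 CPM (2.49 ± 0.19 on the log2 scale, adjusted p = 1.24e-09).

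Of 6 lincRNAs linked to p53 and the cell cycle, Snhg12 rose, Lockd fell, and Neat1, Pvt1, Trp53cor1 and Mir17hg were not called, with a median of 0.15. Of all 176 lincRNAs 8.52% were called, and of all genes 14.8%. Trp53cor1, known as lincRNA-p21, is a p53 target transcribed away from Cdkn1a, the gene of the cell-cycle inhibitor p21. It measured 1.87, 2.62 and 3.26 CPM in control and 4.34, 2.89 and 2.11 CPM in GR-cKO. Both groups covered a similar range (0.27 ± 0.36 on the log2 scale, adjusted p = 0.704), while Cdkn1a, 11797 bp away, rose from 190 ± 6.76 to 274 ± 19.3 CPM (0.53 ± 0.07 on the log2 scale, adjusted p = 6.3e-06).

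Where 8.52% of all 176 lincRNAs were called, Snhg12 rose alone among 7 listed as hosts of small RNAs, whose median was -0.19. Such genes carry snoRNAs, guides for the modification of ribosomal RNA, or miRNAs in their introns or exons, and the spliced host RNA is often short-lived. Snhg12 (ENSMUSG00000086290, chr4:132308623-132311024, plus strand) spans 5 annotated snoRNA genes, Snora16a (annotated at 2 places), Snora44, Snora61 and Snord99. It was 16.2, 17.3 and 17.2 CPM in control and 25.5, 24.1 and 25.2 CPM in GR-cKO. Libraries within a group differed by little, and the host rose 1.48-fold, from 16.9 ± 0.642 to 25.0 ± 0.749 CPM (0.56 ± 0.12 on the log2 scale, adjusted p = 0.00199). The snoRNAs themselves are not polyadenylated and were not measured by these tags.

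The other listed hosts of small RNAs gave no call. Snhg18, the most abundant of them, was 128, 132 and 153 CPM in control and 118, 119 and 125 CPM in GR-cKO. The groups did not overlap, but the difference of -0.19 ± 0.08 on the log2 scale had an adjusted p of 0.117. Snhg6 was 31.8 ± 4.31 and 32.8 ± 8.43 CPM (0.04 ± 0.14), Epb41l4aos 28.4 ± 3.41 and 32.4 ± 2.98 CPM (0.19 ± 0.12), Snhg20 15.0 ± 2.77 and 12.5 ± 2.06 CPM (-0.27 ± 0.17) and Snhg10 1.28 ± 0.365 and 1.09 ± 0.625 CPM (-0.24 ± 0.55), with log2 fold changes in brackets. By annotation, 14 of the 176 lincRNAs span a miRNA, snoRNA or scaRNA gene on their strand, and 2 of these were called, Snhg12 and Mirg, beside 8.52% of all 176 lincRNAs and 14.8% of all genes. Well-known hosts such as Gas5 and Snhg1 carry other biotypes in this annotation and are not among the 176.

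Mirg, the miRNA host of the imprinted Dlk1-Dio3 cluster, fell to 0.511 of its control level. This cluster expresses Dlk1, an inhibitor of differentiation, from the paternal chromosome and a row of noncoding RNAs, Meg3, Rian and Mirg, from the maternal one. Mirg (ENSMUSG00000097391, chr12:109729764-109749460, plus strand) has 12 exons in its longest transcript and spans 14 miRNA genes with 26 mature miRNAs. Its levels were 30.5, 22.9 and 25.4 CPM in control and 15.9, 15.7 and 8.65 CPM in GR-cKO. All GR-cKO libraries were below all controls, replicate 3 the lowest (-0.97 ± 0.18 on the log2 scale, adjusted p = 0.000307).

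The mature miRNAs of Mirg and of Mir17hg, the host of the growth-promoting miR-17-92 cluster, are shown where 2 of them share a seed, bases 2 to 8, together with 4 further products of Mirg as examples. Sequences are from RefSeq (GRCm38.p6), with the seed in capitals.
mmu-miR-453 (Mirg, chr12:109735669-109735692): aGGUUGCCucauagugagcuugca
mmu-miR-496a-5p (Mirg, chr12:109739132-109739152): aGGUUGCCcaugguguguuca
mmu-miR-382-5p (Mirg, chr12:109733781-109733802): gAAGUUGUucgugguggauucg
mmu-miR-134-5p (Mirg, chr12:109734145-109734166): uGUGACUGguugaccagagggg
mmu-miR-154-5p (Mirg, chr12:109738438-109738459): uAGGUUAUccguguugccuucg
mmu-miR-410-3p (Mirg, chr12:109743764-109743784): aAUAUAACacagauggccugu
mmu-miR-17-5p (Mir17hg, chr14:115043684-115043706): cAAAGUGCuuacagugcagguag
mmu-miR-20a-5p (Mir17hg, chr14:115044183-115044205): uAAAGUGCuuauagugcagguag
mmu-miR-19a-3p (Mir17hg, chr14:115044048-115044070): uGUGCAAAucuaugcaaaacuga
mmu-miR-19b-3p (Mir17hg, chr14:115044358-115044380): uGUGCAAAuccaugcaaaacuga
All of these are encoded on the plus strand. The 26 mature miRNAs of Mirg carry 25 different seeds, with GGUUGCC the one that recurs, while the 11 of Mir17hg carry 9. The miRNAs were not measured here, only the host transcripts. Mir17hg (chr14:115042879-115046727) was low, at 3.07, 2.91 and 3.41 CPM in control and 1.58, 2.69 and 3.30 CPM in GR-cKO. The groups overlapped (-0.31 ± 0.35 on the log2 scale, adjusted p = 0.641).

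Between Dlk1 and Dio3, an interval chosen after values were seen, 6 genes were tested, all with fold changes below 0. Of these, 4 were called lower, against 7.19% of all genes. Dlk1 fell from 94.3 ± 11.8 to 20.3 ± 3.14 CPM (-2.21 ± 0.11 on the log2 scale, adjusted p = 1.2e-12). Rian, a snoRNA host, changed by -0.87 ± 0.17 and Meg3 by -0.34 ± 0.06 on the log2 scale. B830012L14Rik, the other lincRNA of the set in this interval, was 4.36, 1.27 and 2.91 CPM in control and 1.94, 2.49 and 2.68 CPM in GR-cKO. Its groups overlapped (-0.26 ± 0.40 on the log2 scale, adjusted p = 0.751), as did those of Gm37899 (-0.36 ± 0.28). Dlk1 and Mirg start 276.9 kb apart, and the differences do not follow the order along the chromosome.

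**Figure D2:**
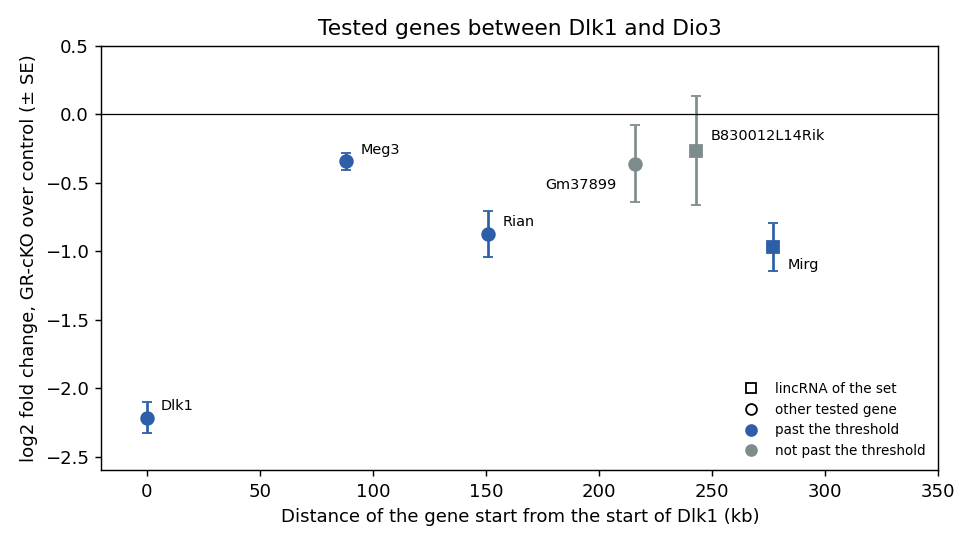
Log2 fold change of GR-cKO over control (y axis, bars are SE) of the 6 tested genes between Dlk1 and Dio3 by distance of their start from that of Dlk1 (x axis, kb). Squares are lincRNAs of the set, circles other genes, and blue marks those past the threshold; Dlk1 is lowest at -2.21 and Mirg, farthest from it, is at -0.97.

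Heart-linked lincRNAs gave no call, and the 2 on that list had a median of 0.24. Bvht, named Braveheart for its part in cardiac lineage commitment of mouse embryonic stem cells, measured 4.08, 2.91 and 3.95 CPM in control and 4.02, 4.18 and 6.18 CPM in GR-cKO. The groups overlapped (0.39 ± 0.28 on the log2 scale, adjusted p = 0.416). Gm12295, which ends 7665 bp before Myocd, the gene of the cardiac and smooth muscle coactivator myocardin, was 15.8 ± 2.83 and 16.7 ± 1.40 CPM (0.08 ± 0.15). 1810058I24Rik, listed as a lincRNA in GENCODE M21 although a small mitochondrial protein is known from it and RefSeq annotates it as protein-coding, was 182, 180 and 176 CPM in control and 193, 211 and 195 CPM in GR-cKO. Its groups did not overlap, but the difference of 0.15 ± 0.07 on the log2 scale had an adjusted p of 0.149.

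**Figure D3:**
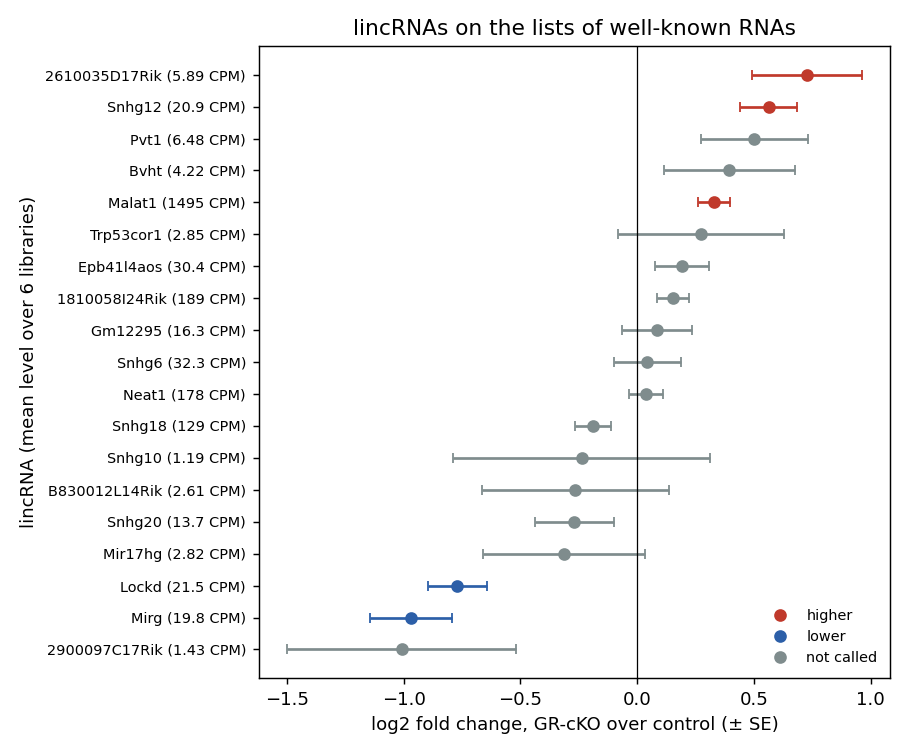
Log2 fold change of GR-cKO over control (x axis, points with SE bars) of the 19 lincRNAs on the lists of hosts, imprinted, nuclear, heart, small-protein and p53 or cell-cycle RNAs, each with its mean level over 6 libraries. Of these, 3 were called higher (red) and 2 lower (blue), where 8.52% of all 176 lincRNAs and 14.8% of all genes were called. The widest bars belong to the scarce Snhg10 and 2900097C17Rik.

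Of the 15 called lincRNAs, 10 carry only Gm or Rik names. The largest called rise with a level above 10 CPM was that of 4833412C05Rik (ENSMUSG00000097697, chr7:67784538-67804139, minus strand), 21626 bp from its nearest protein-coding gene, Ttc23. It was 4.99, 8.81 and 7.56 CPM in control and 15.1, 15.3 and 18.4 CPM in GR-cKO. Every GR-cKO library exceeded every control library by a wide margin, and the level rose 2.28-fold (1.19 ± 0.19 on the log2 scale, adjusted p = 6.83e-05). Ttc23 and Synm, the next gene, differed by 0.40 ± 0.18 and 0.34 ± 0.12 on the log2 scale, with adjusted p values of 0.154 and 0.0681.

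Gm11110 (chr17:57091370-57105942, minus strand) had the largest fitted rise, from a very low level. It was 0.240, 1.36 and 0.593 CPM in control and 4.56, 1.89 and 2.21 CPM in GR-cKO. The groups did not overlap, but GR-cKO replicate 1 stood far above the others (1.98 ± 0.54 on the log2 scale, adjusted p = 0.0137). Without that library the log2 fold change was 1.48 with an adjusted p of 0.156, and without control replicate 1 it was 1.56 with an adjusted p of 0.0555, so either omission ended the call.

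Dubr (ENSMUSG00000022639, chr16:50719294-50732773, minus strand), a lincRNA known from muscle precursor differentiation, was 24.6, 22.6 and 21.8 CPM in control and 33.3, 31.9 and 27.0 CPM in GR-cKO. All GR-cKO libraries were higher, and it rose 1.34-fold (0.42 ± 0.12 on the log2 scale, adjusted p = 0.0166). The call was lost without control replicate 2 (log2 fold change 0.41), control replicate 3 (0.38), GR-cKO replicate 1 (0.36) or GR-cKO replicate 2 (0.39), with adjusted p values between 0.0557 and 0.0951. No protein-coding gene lies within 100 kb of it in this annotation; the nearest, Ccdc54, is 128140 bp away.

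Gm26917 and 5430431A17Rik rose by small amounts, and each call was lost when any 1 of 4 libraries was left out. Gm26917 (chr17:39843013-39846341, plus strand) was 282, 259 and 284 CPM in control and 345, 300 and 310 CPM in GR-cKO, without overlap (0.21 ± 0.07 on the log2 scale, adjusted p = 0.0447). It ends 12 bp before an annotated ribosomal RNA gene on the opposite strand, and Gm42418, which overlaps that gene, took 6.15% to 8.57% of gene counts in a library and gave no call (log2 fold change -0.01 ± 0.08). How reads of such repeated sequence were assigned is not given in the sources used here, so the counts of Gm26917 are uncertain. 5430431A17Rik (chr7:44473538-44486138, plus strand) was 47.6, 38.6 and 42.3 CPM in control and 51.4, 63.6 and 47.4 CPM in GR-cKO, and the groups overlapped at the level of control replicate 1 (0.34 ± 0.11 on the log2 scale, adjusted p = 0.0394). Gm26917 lost its call without any 1 control library or GR-cKO replicate 1, with log2 fold changes of 0.15 to 0.24 and an adjusted p of up to 0.238. 5430431A17Rik lost it without control replicate 2 or 3 or GR-cKO replicate 1 or 2, and without the last its log2 fold change was 0.21 with an adjusted p of 0.297.

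Among the falls, Gm39214 (ENSMUSG00000109754, chr8:85730816-85765095, plus strand) was 20.8, 21.4 and 19.2 CPM in control and 10.3, 12.5 and 10.5 CPM in GR-cKO. The groups stood far apart (-0.88 ± 0.14 on the log2 scale, adjusted p = 8.92e-05). It overlaps Itfg1 on the opposite strand, whose difference was 0.09 ± 0.10 on the log2 scale, and without the strand setting of the counting their tags cannot be fully told apart. Gm31659 (ENSMUSG00000110489, chr8:95808552-95818274, minus strand) was 24.2, 28.3 and 24.0 CPM in control and 14.3, 19.1 and 16.7 CPM in GR-cKO, again without overlap (-0.61 ± 0.14 on the log2 scale, adjusted p = 0.00232). Cnot1, a subunit of the deadenylase complex that begins mRNA decay, lies 1088 bp downstream on the same strand and differed by -0.11 ± 0.09 on the log2 scale.

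The deepest fall was that of 2310015D24Rik (ENSMUSG00000099411, chr16:13514131-13521107, minus strand), at 3.79, 4.87 and 3.16 CPM in control and 1.54, 1.20 and 1.13 CPM in GR-cKO. Its lowest control library was above the highest GR-cKO library by more than the spread within GR-cKO (-1.61 ± 0.36 on the log2 scale, adjusted p = 0.00273). E330017L17Rik (chr4:129906216-129919787, plus strand) was 2.11, 4.12 and 5.24 CPM in control and 1.90, 1.69 and 1.6 CPM in GR-cKO. The groups did not overlap, although control replicate 1 was close to the GR-cKO libraries (-1.14 ± 0.37 on the log2 scale, adjusted p = 0.0389). 4933404O12Rik (chr5:136919146-136937112, plus strand) was 4.17, 6.70 and 8.84 CPM in control and 3.84, 4.33 and 2.16 CPM in GR-cKO, with overlap (-0.93 ± 0.30 on the log2 scale, adjusted p = 0.0373). With single libraries left out, E330017L17Rik kept its call without control replicate 1 and lost it without each of the other 5, and reached -0.85 with an adjusted p of 0.215 without control replicate 3. 4933404O12Rik lost its call without control replicate 2 or 3 or GR-cKO replicate 1 or 3, with -0.65 and an adjusted p of 0.226 without control replicate 3. Under spike-in scaling both were past the threshold no longer, at -1.06 and -0.85 with adjusted p values of 0.0646 and 0.0639.

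**Figure D4:**
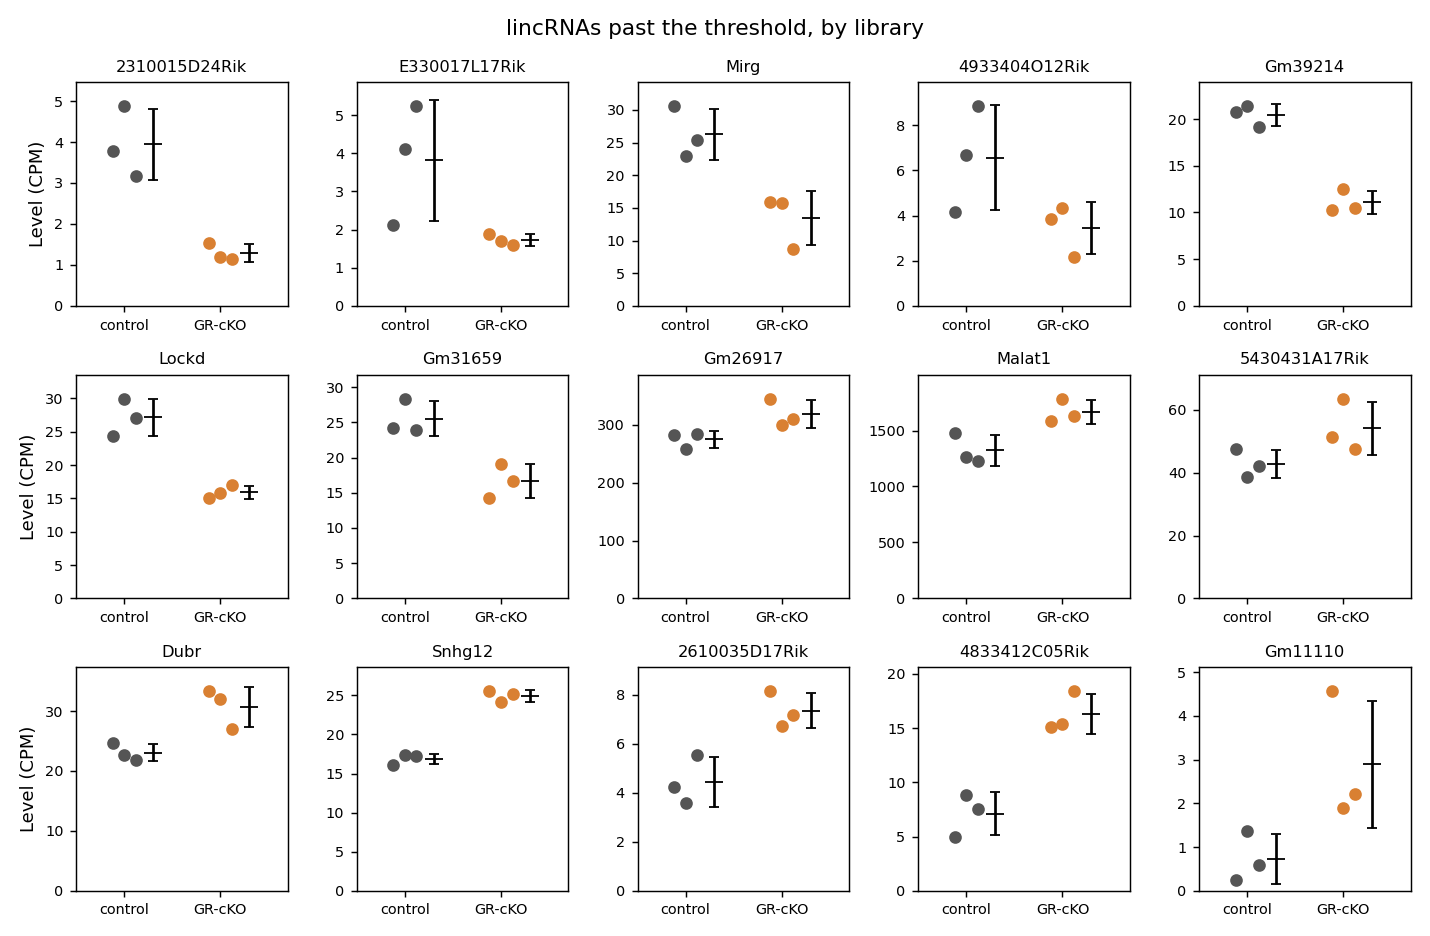
Level in CPM (y axis, each panel from 0) of the 15 called lincRNAs in the 3 control (grey) and 3 GR-cKO (orange) libraries, with mean and SD bars, ordered from the most negative to the most positive log2 fold change. In 13 panels the groups do not overlap; 4933404O12Rik and 5430431A17Rik are the exceptions.

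The most abundant lincRNAs beyond these gave no call. 1700020I14Rik was 196, 186 and 185 CPM in control and 184, 171 and 180 CPM in GR-cKO (-0.08 ± 0.07 on the log2 scale, adjusted p = 0.522). Its GR-cKO libraries were the 3 lowest, by a margin smaller than the spread within either group. Tmem250-ps, named as a pseudogene, annotated as protein-coding in RefSeq and uncertain in its read assignment, was 101 ± 7.71 and 108 ± 13.1 CPM (0.11 ± 0.09).

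Position relative to protein-coding genes, which the choice of lincRNAs did not use, divided the set as follows. There were 17 lincRNAs that overlap a protein-coding gene on the same strand, 31 that begin within 10 kb after the end of one on the same strand, 36 that start within 2 kb of the start of one on the opposite strand, 7 with another overlap on the opposite strand, and 85 with none of these. Of the 15 called, 10 belonged to the last class (6 higher and 4 lower), 3 followed a gene on the same strand (5430431A17Rik higher, Lockd and 4933404O12Rik lower), Gm11110 had a divergent start and Gm39214 an opposite overlap, and 0 of the 17 with same-strand overlap were called, against 8.52% of all 176. The edgeR test left 3 of these 17 at an unadjusted p below 0.05, and DESeq2 called 0. The split depended on the same-strand window. With 50 kb in place of 10 kb, 81 lincRNAs followed a gene on the same strand, of which 5 were called higher and 4 lower. There were then 52 with none of these positions, 3 called higher and 2 lower. With 5 kb, 23 followed a gene (1 higher and 2 lower) and 92 had none of these positions (6 higher and 4 lower). The lincRNA and its tested neighbour had the same sign of fold change in 8 of 10 pairs for same-strand overlap. The count was 19 of 29 for same-strand upstream genes, 19 of 33 for divergent starts and 1 of 5 for other opposite-strand overlaps. With the 50 kb window it was 42 of 72 for same-strand upstream genes. These counts are given as a description, since both genes are measured in the same libraries.

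In 15 of these pairs the protein-coding neighbour was called, 2 with same-strand overlap, 5 with a same-strand upstream gene and 8 with a divergent start, and in none of the 15 was the lincRNA called (edgeR; 4 at an unadjusted p below 0.05, and 0 called by DESeq2), where 8.52% of all 176 lincRNAs and 14.8% of all genes were called. Sema5a, which starts 148 bp from Snhg18, fell (-0.67 ± 0.12 on the log2 scale, adjusted p = 0.000298), against -0.19 ± 0.08 for Snhg18. Tbx5, a transcription factor of heart development, fell by 0.59 ± 0.08 on the log2 scale beside Gm43050, at 0.09 ± 0.31. Hand2, another cardiac transcription factor, fell by 0.29 ± 0.08 upstream of 5033428I22Rik, whose difference was -0.28 ± 0.11 with an adjusted p of 0.081. Rfc5, a clamp loader subunit of DNA replication, fell by 0.93 ± 0.14 on the log2 scale beside Gm15728, at 0.52 ± 0.59. These lincRNAs were 1.11 to 129 CPM in level, and the differences between the members of a pair were not tested. Called lincRNAs with a called protein-coding gene outside these position classes were also present, in both agreeing and opposite directions, and were picked after values were seen. Emc10, 3799 bp downstream of 5430431A17Rik on the other strand, rose by 0.26 ± 0.07 on the log2 scale (adjusted p = 0.00691), as that lincRNA did. Neto2, 29892 bp from Gm39214, fell by 0.86 ± 0.24 (adjusted p = 0.0146), again with its lincRNA. The amino acid transporter gene Slc38a7, 17646 bp from Gm31659, rose by 0.55 ± 0.18 (adjusted p = 0.0471) while Gm31659 fell. Likewise in opposite directions, Apold1 rose (2.49 ± 0.19) where Lockd fell, and Sox9 fell (-0.39 ± 0.07) where 2610035D17Rik rose. Dlk1 (-2.21 ± 0.11) and Mirg both fell.

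**Figure D5:**
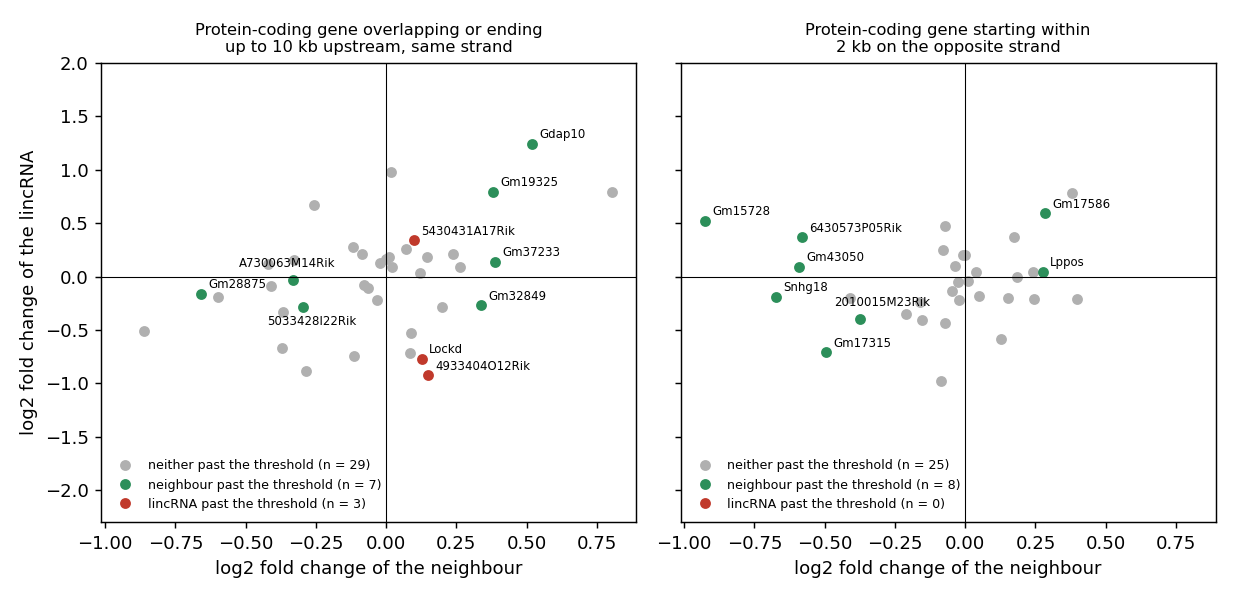
Log2 fold change of the lincRNA (y axis) against that of its protein-coding neighbour (x axis), GR-cKO over control, for genes on the same strand (left) and for divergent starts (right), each point 1 pair. Green marks pairs whose neighbour passed the threshold (7 and 8) and red pairs whose lincRNA did (3 and 0), and no pair has both.

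Promoter sequence was available for 97 of the 176 lincRNAs in the RefSeq table (GRCm38.p6; 250 bases before to 50 after the start), with 68 of the windows starting within 100 bases of the GENCODE start. The palindromic glucocorticoid receptor motif, GNACA and TGTNC with any 3 bases between them, was in none of the 97, against 0.475% of all 32851 windows and 0.29% of 9986 tested protein-coding genes. At shares this low, 97 windows are too few for their lack of a match to set the lincRNAs apart from other genes. The cores ACGTG and GCGTG, of hypoxia-inducible factor elements, searched on both strands, were in 24.7% and 34.0%, against 19.6% and 32.4% of all windows. At least 1 core was in 47.4% of the lincRNA windows, 43.8% of all windows and 63.7% of those of protein-coding genes. Among called lincRNAs it was in 3 of 6 that rose and in 1 of 6 that fell. The promoters of Dubr and Malat1 are shown, since both start at the GENCODE start and hold 3 and 1 cores, in capitals.
Dubr (chr16:50732724-50733023, minus strand): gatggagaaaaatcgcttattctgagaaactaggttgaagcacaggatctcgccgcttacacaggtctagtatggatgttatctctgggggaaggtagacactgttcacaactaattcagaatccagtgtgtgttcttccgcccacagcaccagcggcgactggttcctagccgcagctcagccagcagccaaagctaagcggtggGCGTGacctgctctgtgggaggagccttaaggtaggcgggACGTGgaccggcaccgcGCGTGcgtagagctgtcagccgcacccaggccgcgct
Malat1 (chr19:5802623-5802922, minus strand): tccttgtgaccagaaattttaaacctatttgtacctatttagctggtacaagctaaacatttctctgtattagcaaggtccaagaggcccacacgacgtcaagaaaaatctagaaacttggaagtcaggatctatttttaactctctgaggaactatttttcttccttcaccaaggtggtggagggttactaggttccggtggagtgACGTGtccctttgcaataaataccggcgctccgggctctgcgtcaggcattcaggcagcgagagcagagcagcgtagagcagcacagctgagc
Such matches describe the letters in these windows and not binding of a factor.

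Genes of 3 complexes or pathways that act with or on noncoding RNAs were read against the 14.8% of all genes called and their median of -0.01. Polycomb repressive complex 2, a histone methyltransferase to which many lincRNAs have been linked, had 2 of 8 genes higher and 2 lower, with a median of -0.22. The catalytic subunit Ezh2 fell from 37.5 ± 1.23 to 21.2 ± 2.82 CPM (-0.82 ± 0.12 on the log2 scale, adjusted p = 1.36e-05), while its alternative Ezh1 rose from 24.2 ± 4.28 to 35.4 ± 1.51 CPM (0.55 ± 0.12, adjusted p = 0.0024). Of 16 tested genes of the nuclear exosome, which degrades many noncoding transcripts, 1 was lower (Exosc1, -0.42 ± 0.14), and of 14 of nonsense-mediated decay, which degrades many snoRNA host RNAs, 2 were lower (Magohb, -0.46 ± 0.15, and the helicase Upf1, -0.29 ± 0.10). The medians of these 2 lists were -0.11 and -0.06.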

How the data were processed

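Per the labels' protocols, QuantSeq forward 3' mRNA libraries were made from 100 ng of total RNA. For each library the authors deposited a table of raw gene counts that had not been normalized. The submitters' processing notes list DESeq2 1.18.1, featureCounts 1.6.2, STAR 2.5.4a, cutadapt 1.16, bcl2fastq, MultiQC 1.5 and FastQC 0.11.7, and the mouse build GRCm38. Whether counting used strand, and how reads with several matches were handled, is not given in the sources used here.

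Groups and replicate numbers came from the sample titles. Genes were matched by identifier to GENCODE M21, spike-in counts were left out, and coordinates are 1-based. The counts were tested with edgeR 4.0.16 in R 4.3.3 (quasi-likelihood test, TMM factors 0.980 to 1.024, low-count filter by group, Benjamini-Hochberg adjustment over 14386 genes, threshold 0.05, common biological coefficient of variation 0.128), fitted on the whole table. The SE is the absolute log2 fold change divided by the root of its F statistic. Adjusted p values in the report are from this test. No 2 libraries of a group looked like 1 library deposited more than once (median chi-square 2.48 to 3.70 per gene over 14301 genes, where counting noise alone gives 0.455), so all 6 were counted, which does not show that they are independent. Gene counts per library were 19371508 to 22583596. DESeq2 1.42.0, spike-in scaling, no low-count filter, a replicate block, each library left out, count minimums of 50 and 500 and other position windows were alternatives.

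The lincRNAs and all gene lists were chosen with earlier results of these data known. Named are lincRNAs on a list, those of the 12 largest rises and falls past the threshold whose groups did not overlap and whose higher group averaged 2 CPM or more, the 8 most abundant, and 3 on each side of the count minimum. 4933404O12Rik, all neighbouring protein-coding genes with their lincRNAs, the hosts of small RNAs by position, the Dlk1-Dio3 interval and the RefSeq biotypes were chosen after values were seen.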

Additional observations from a re-analysis of the deposited data

How the results depend on the processing

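Of the 15 called lincRNAs, 8 stayed past the threshold in all 10 alternatives run on each, and 13 in the 4 that kept all libraries. The number of lincRNAs called higher, 8, ranged from 3 (without GR-cKO replicate 1; 5 without GR-cKO replicate 2) to 9 when 1 library was left out, and the 7 called lower ranged from 5 to 7. Over all genes 1584 to 1907 were then called, against 2132. DESeq2 gave 8 higher and 8 lower, no low-count filter 8 and 7, count minimums of 50 and 500 gave 8 and 7 and 7 and 5, and leaving out lincRNAs that follow or overlap a protein-coding gene on the same strand gave 7 and 5. Signs were followed for the lincRNAs named in the report, apart from those named at the count minimum or only for their neighbours. Among these the sign turned for lincRNAs that were not called: 1700020I14Rik under spike-in scaling (0.016), and, with 1 library left out, Neat1 (-0.0016 to 0.090), Snhg6 (-0.17 to 0.19), Gm12295 (-0.011 to 0.24), Trp53cor1 (-0.044 to 0.49), B830012L14Rik (-0.62 to 0.18) and Snhg10 (-0.75 to 0.12), as log2 fold changes; the cause was not tested. Outside the 15, leaving out control replicate 3 called 4 further lincRNAs. Replicate numbers are shared by the genotypes, but same-numbered libraries did not deviate together (correlations 0, 0.037 and 0.020), and not every library correlated best with its own number. With a replicate block 2353 genes were called, 9 lincRNAs higher and 7 lower. Depth limits most the 122 lincRNAs below 5 CPM, of which 3 were called.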
